A study of Mus musculus with 6 samples.

Results

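The genes described here carry the TGF-beta signal in microglia, the resident macrophages of the brain. They are the ligand Tgfb1, its anchor Nrros, the receptors Tgfbr1 and Tgfbr2, the signal carriers Smad2, Smad3 and Smad4, and the negative regulators Smad7, Ski and Skil. They were taken by symbol from the deposited count table, where all 10 were found among 48587 genes. The samples were FACS-sorted microglia of C57BL/6 mice at postnatal day 42, about 1000 cells each, with 3 samples of genotype Lyl1 KO and 3 of genotype wildtype. Lyl1 encodes a transcription factor of the basic helix-loop-helix class that acts in blood-forming progenitors, and the effect of its loss on microglia is the question of the series. The labels give neither the targeted allele nor the sex of the mice, and they do not say whether each sample came from its own animal or from pooled animals. The p-values below therefore reflect only how far these samples spread, and part of that spread may be technical.

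TGF-beta is secreted as an inactive complex in which a propeptide covers the ligand. On microglia that complex is held at the surface by Nrros, also called LRRC33, and integrins release the active ligand. The ligand binds the type II receptor Tgfbr2, which phosphorylates the type I receptor Tgfbr1, and this kinase in turn phosphorylates Smad2 and Smad3, which enter the nucleus with Smad4. Smad7 blocks the receptor, and Ski and Skil repress SMAD target genes in the nucleus. In adult mouse brain this signal is known to maintain the gene expression that sets microglia apart from other macrophages.

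Reads per sample ran from 19205948 to 27305558 in knockout and from 12753945 to 27378614 in wild type. Levels are given as CPM (reads scaled to a common library total, with TMM scaling between samples), and 3 reads in a sample, the upper limit that a count of 0 allows, correspond to 0.104 to 0.264 CPM. Lyl1 itself had 9.03, 12.0 and 14.3 CPM in knockout samples 1 to 3, against 60.2, 55.6 and 40.0 CPM in wild-type samples 1 to 3, so it was lower in every knockout sample but not absent. The 6 markers fixed for microglia summed to 29687 to 33471 CPM in knockout and 31641 to 34184 CPM in wild type. Xist stood at 349 CPM in knockout sample 1, at 412 CPM in knockout sample 3, at 0.203 CPM in knockout sample 2, and at 0.382 to 1.41 CPM in wild type, so the sex of the mice was not balanced between the genotypes.

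All 10 genes passed the filter on low counts, and none passed the test between genotypes (edgeR quasi-likelihood test on 10394 genes, adjusted p = 0.9999 for each). The test called 0% of all genes tested. The targeted gene Lyl1 was not called either (edgeR, log2 fold change -2.14, unadjusted p = 0.0609, adjusted p = 0.9999). The lack of a call for the 10 is therefore weak evidence that they did not differ. At an unadjusted p under 0.05 the count was 0 of 10, where 2.84% of all tested genes lay. DESeq2 and limma-voom also called 0 of the 10. Of all genes, limma-voom called 0. DESeq2 called 34 higher and 18 lower among 9937 genes with an adjusted p, fitted on the genes edgeR tested. Fitted on all genes with a read, it called 97 higher and 40 lower among 13116. The CPM of the genotypes overlapped for all 10, while 11.2% of all tested genes had genotypes that did not overlap, 5.97% with every knockout sample higher and 5.19% with every knockout sample lower. The fitted difference was toward higher levels in knockout for 7 genes and toward lower levels for 3, with a median log2 fold change of 0.21, beside -0.03 over all tested genes.

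**Figure D1:**
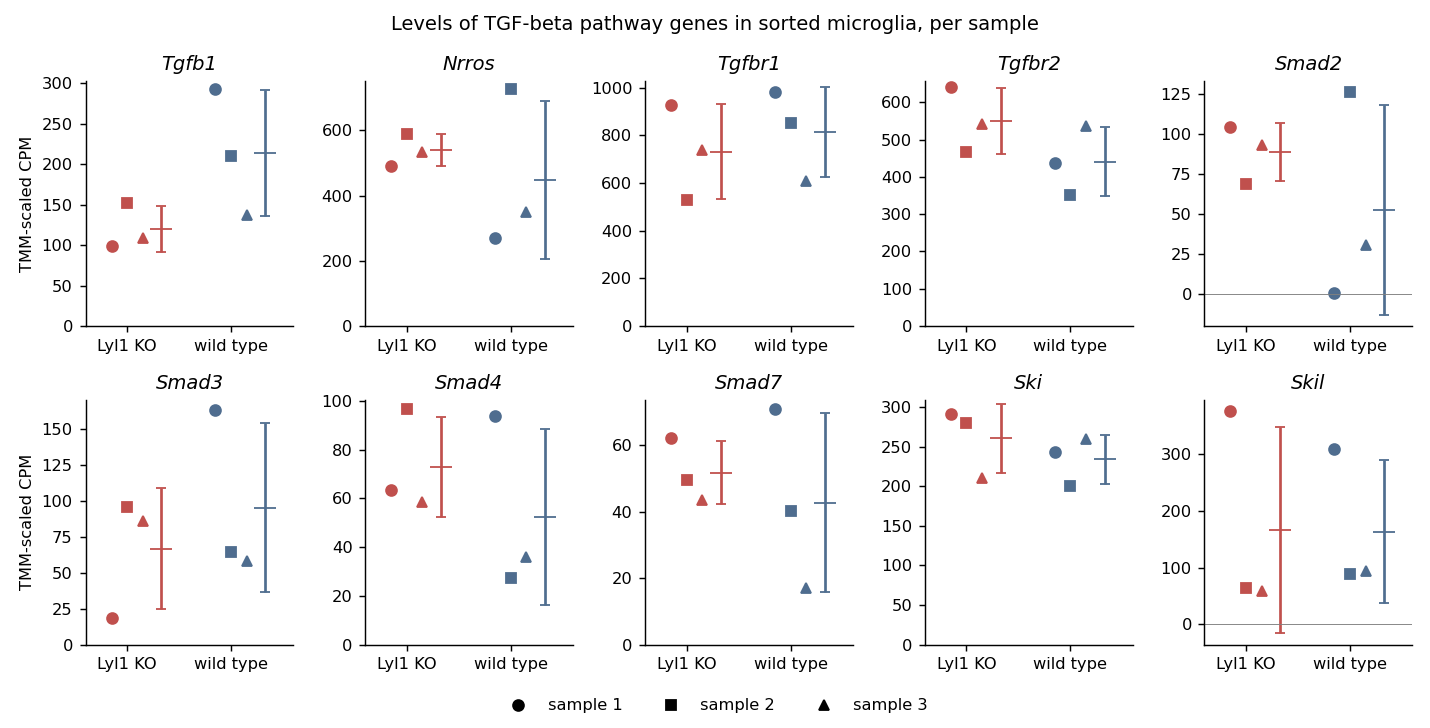
TMM-scaled CPM of each gene (y axis, a separate linear scale per panel) in the 3 Lyl1 KO samples and the 3 wild-type samples, with the mean and SD beside the points. Tgfb1 had the smallest unadjusted p of the 10, and its highest knockout sample (153 CPM) still lay above the lowest wild-type sample (138 CPM).

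The 3 genes with the smallest unadjusted p were Tgfb1, Tgfbr2 and Nrros, so their promoters are shown. Each window runs from 250 bases before to 50 bases after the RefSeq start site on GRCm38 and is written 5′ to 3′ on the strand of the gene. Capitals mark the letters CAGAC or its reverse complement, the short SMAD-binding box. The windows are chr7:25686752-25687051 (plus strand) for Tgfb1, chr9:116175314-116175613 (minus strand) for Tgfbr2 and chr16:32165545-32165844 (minus strand) for Nrros.
Tgfb1 promoter: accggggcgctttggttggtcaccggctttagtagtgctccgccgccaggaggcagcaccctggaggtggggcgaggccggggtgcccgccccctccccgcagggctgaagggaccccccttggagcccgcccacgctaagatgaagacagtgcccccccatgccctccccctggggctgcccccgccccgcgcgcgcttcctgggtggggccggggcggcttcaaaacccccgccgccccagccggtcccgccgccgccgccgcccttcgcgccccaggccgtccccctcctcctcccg
Tgfbr2 promoter: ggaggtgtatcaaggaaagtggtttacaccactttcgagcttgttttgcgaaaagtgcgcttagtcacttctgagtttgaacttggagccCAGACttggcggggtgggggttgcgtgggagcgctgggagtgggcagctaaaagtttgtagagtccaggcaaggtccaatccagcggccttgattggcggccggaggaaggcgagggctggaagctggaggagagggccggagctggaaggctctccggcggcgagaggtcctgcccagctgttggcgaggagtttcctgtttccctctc
Nrros promoter: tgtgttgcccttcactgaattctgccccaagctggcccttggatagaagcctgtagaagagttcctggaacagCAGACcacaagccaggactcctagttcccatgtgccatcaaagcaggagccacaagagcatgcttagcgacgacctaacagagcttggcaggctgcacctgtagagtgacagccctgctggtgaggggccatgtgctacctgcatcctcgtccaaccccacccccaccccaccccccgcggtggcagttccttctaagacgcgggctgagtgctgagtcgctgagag

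The Tgfb1 window is 77% G or C and holds no CAGAC, whereas the windows of Tgfbr2 and Nrros hold 1 match each. CAGAC on either strand is present in 49.6% of all 32851 promoter windows of this length. E-boxes, the letters CANNTG that basic helix-loop-helix factors such as Lyl1 recognise, numbered 0 in the Tgfb1 window, 1 in the Tgfbr2 window and 3 in the Nrros window, and 72.3% of all windows hold at least 1. The narrower E-box CAGATG, which CANNTG includes, was in none of the 3 windows and in 17.2% of all. RefSeq promoter windows matched 6 of the 10 genes, and no measurement here bears on promoter activity.

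Tgfb1 (ENSMUSG00000002603.15, chromosome 7, 25687002 to 25705077, plus strand) encodes the ligand. It had 98.3, 153 and 109 CPM in knockout samples 1 to 3, against 293, 210 and 138 CPM in wild-type samples 1 to 3. The 2 lowest of the 6 values were both from knockout and the 2 highest both from wild type, but the genotypes overlapped through knockout sample 2 and wild-type sample 3. The means were 120 ± 28.8 CPM in knockout and 214 ± 77.6 CPM in wild type (SD, n = 3 each), a log2 fold change of -0.83 with a standard error of 0.41 and a 95% interval of -1.78 to 0.12 (edgeR, unadjusted p = 0.0776). The exact 2-sided permutation p was 0.2, where 0.1 is the smallest that 3 against 3 samples allow. Without wild-type sample 3 the log2 fold change was -1.06 (edgeR, unadjusted p = 0.0397), and without wild-type sample 1 it was -0.53. Of the 12 other ligands of the superfamily on a fixed list, none had enough reads to be tested. Tgfb2, a second TGF-beta isoform, reached 2.69 CPM in knockout sample 2 and 0.143 CPM in wild-type sample 3 and had no read in the other samples. Tgfb3 had reads only in wild-type sample 3, at 0.191 CPM.

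Nrros (ENSMUSG00000052384.14, chromosome 16, 32142785 to 32165594, minus strand) encodes the surface protein that holds latent Tgfb1. In knockout it had 492, 589 and 535 CPM, against 271, 726 and 350 CPM in wild type. Wild type held both the lowest and the highest value, and the knockout samples lay between them. The coefficient of variation was 9.04% in knockout and 54.1% in wild type. On the log2 scale the difference was 0.26 (standard error 0.37, 95% interval -0.60 to 1.13). It moved to 0.82 without wild-type sample 2 (edgeR, unadjusted p = 0.0172) and to 0.013 without wild-type sample 1. Lrrc32, the related anchor known from regulatory T cells, had no read in any sample.

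Reads of Tgfb1 per read of Nrros, a ratio within a sample that no scaling enters, were 0.200, 0.259 and 0.203 in knockout, against 1.08, 0.290 and 0.393 in wild type. The genotypes did not overlap in this ratio, yet knockout sample 2 and wild-type sample 2 lay close together. All 45 ratios between 2 of the 10 genes were computed, and in 4 of them, or 8.89%, the genotypes did not overlap. Those were Tgfb1 over Nrros, Tgfb1 over Smad4, Tgfb1 over Smad7 and Smad3 over Smad4, each lower in knockout. All but the last share Tgfb1 as numerator, so they are not independent. No share over other pairs of genes was computed. The exact 2-sided permutation p was 0.1 for each, which is the smallest these samples allow, and 0.833 after Benjamini-Hochberg adjustment over the 45 ratios.

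**Figure D2:**
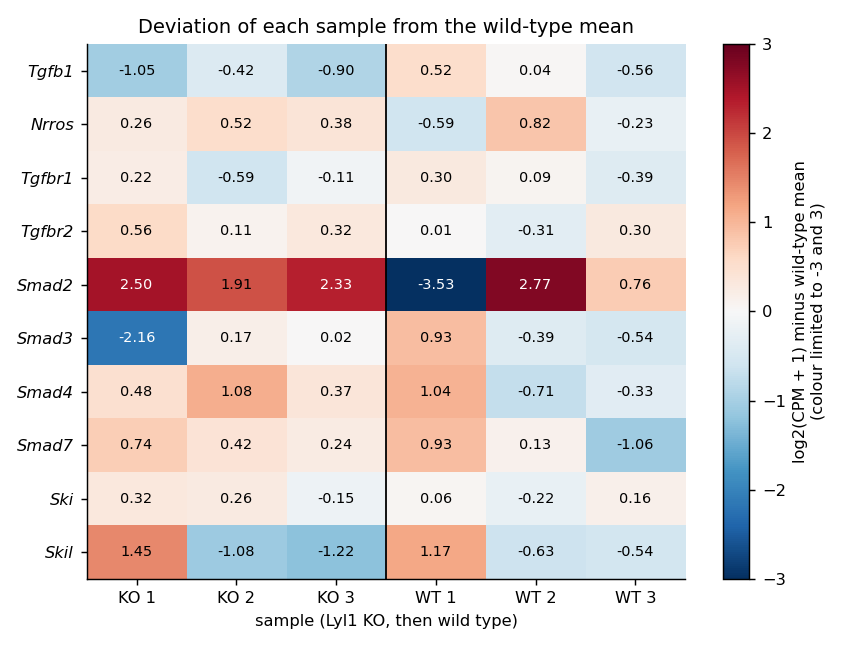
Log2(CPM + 1) of each gene (rows) in each sample (columns) minus the mean of the 3 wild-type samples, in log2 units, with the colour limited to the range from -3 to 3. Tgfb1 lies below 0 in all 3 knockout samples and in wild-type sample 3, Smad2 stands apart in wild-type sample 1 (-3.53), and Skil is high in knockout sample 1 and wild-type sample 1 (1.45 and 1.17).

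The receptors were among the more abundant and steadier of the 10 genes. Their coefficients of variation over the 6 samples were 23.2% for Tgfbr1 and 20.3% for Tgfbr2. The medians of the 200 genes nearest in level were 23.0% and 25.6%, so this steadiness was not particular to the receptors. Tgfbr1 (ENSMUSG00000007613.15, chromosome 4, 47353222 to 47414931, plus strand), the type I receptor kinase, was at 928, 530 and 739 CPM in knockout, against 984, 851 and 610 CPM in wild type. Both genotypes spanned nearly the same range. Its log2 fold change was -0.15 (standard error 0.28, 95% interval -0.80 to 0.49), so a fall below 0.576-fold or a rise above 1.40-fold lies outside the interval. The value became 0.012 with upper-quartile scaling, a setting that moves the median of all tested genes by 0.12, 0.053 without knockout sample 2 and 0.014 without wild-type sample 1. With Xist as a covariate, which moves that median by -0.24, the log2 fold change of Tgfbr1 was -0.60. Only knockout sample 2 among the knockouts had as little Xist as wild type. That fit therefore rests mainly on knockout sample 2 and does not separate sex from genotype well.

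Tgfbr2 (ENSMUSG00000032440.13, chromosome 9, 116084293 to 116175360, minus strand), the type II receptor that binds the ligand, was at 642, 467 and 541 CPM in knockout, against 437, 350 and 535 CPM in wild type. The highest value came from knockout and the lowest from wild type, with overlap between them. Mean levels were 550 ± 87.8 CPM in knockout and 441 ± 92.6 CPM in wild type (SD, n = 3 each). This is a log2 fold change of 0.32 (standard error 0.25, 95% interval -0.26 to 0.90), the narrowest of the 10 intervals. Among the 11 other receptors and co-receptors of the family that were found in the table, 8 were tested, 5 of them with a higher and 3 with a lower fitted level in knockout, and none had an unadjusted p under 0.05. Eng, a co-receptor typical of endothelial cells, had 44.9, 45.3 and 81.5 CPM in knockout, against 64.3, 144 and 84.6 CPM in wild type, with overlap.

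The carriers of the signal were low and uneven, as were other genes of like level. The coefficient of variation over the 6 samples was 67.2% for Smad2, 59.8% for Smad3 and 45.9% for Smad4. The medians of the 200 genes nearest in level were 60.5%, 57.3% and 62.3%. Smad2 (ENSMUSG00000024563.16, chromosome 18, 76241580 to 76310963, plus strand), a SMAD that the receptor phosphorylates, had 2372, 1358 and 2672 reads in knockout, against 7, 3177 and 639 reads in wild type. That is 104, 69.0 and 92.9 CPM in knockout, against 0.617, 126 and 30.5 CPM in wild type. The knockout samples lay close together, and the wild-type samples held both the lowest and the highest value. Wild-type sample 1 alone fell below a 20th of the mean of the gene. A sample that low was also seen for 47 of the 200 tested genes nearest to Smad2 in mean level, or 23.5%. The log2 fold change of 0.76 had an interval of -2.34 to 3.86, and it was 0.19 without wild-type sample 1 and 2.53 without wild-type sample 2.

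Smad3 (ENSMUSG00000032402.12, chromosome 9, 63646767 to 63757994, minus strand), the other SMAD that the receptor phosphorylates, was at 18.3, 95.7 and 86.2 CPM in knockout, against 164, 64.6 and 58.4 CPM in wild type. Knockout sample 1 was the lowest and wild-type sample 1 the highest, and the other samples lay together across the genotypes. Smad3 had a log2 fold change of -0.52 with an interval of -2.33 to 1.30, and it was -0.07 without knockout sample 1 and 0.13 without wild-type sample 1.

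Smad4 (ENSMUSG00000024515.13, chromosome 18, 73639009 to 73703780, minus strand), the shared partner of the other two, was at 63.6, 96.5 and 58.6 CPM in knockout, against 93.9, 27.2 and 35.8 CPM in wild type. Wild-type sample 1 lay within the knockout range, and the other wild-type samples lay below it. Smad4 had a log2 fold change of 0.48 with an interval of -1.22 to 2.18, and it reached 1.22 without wild-type sample 1. Reads of Smad3 per read of Smad4 were 0.287, 0.992 and 1.47 in knockout, against 1.74, 2.37 and 1.63 in wild type.

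The negative regulators differed from each other in how they spread. Smad7 (ENSMUSG00000025880.11, chromosome 18, 75367529 to 75395935, plus strand), the inhibitory SMAD that TGF-beta itself induces, was at 62.1, 49.6 and 43.5 CPM in knockout, against 71.1, 40.2 and 17.1 CPM in wild type. The wild-type range enclosed the knockout range. For Smad7 the log2 fold change was 0.27 with an interval of -1.66 to 2.21, and it was -0.094 without wild-type sample 3.

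Ski (ENSMUSG00000029050.15, chromosome 4, 155154075 to 155222592, minus strand), a co-repressor that binds SMAD complexes, was at 292, 280 and 210 CPM in knockout, against 243, 200 and 260 CPM in wild type. Its values were the steadiest of the 10, with a coefficient of variation of 14.9% over the 6 samples, and 4.50% of the 200 genes nearest in level varied less. The fitted log2 fold change was 0.15 (standard error 0.29, 95% interval -0.52 to 0.82).

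Skil (ENSMUSG00000027660.16, chromosome 3, 31095058 to 31122577, plus strand) encodes SnoN, the close relative of Ski. It was at 377, 64.2 and 58.2 CPM in knockout, against 309, 88.5 and 93.9 CPM in wild type. Sample 1 was high in both genotypes, and the other 4 samples lay between 58.2 and 93.9 CPM. Its coefficient of variation over the 6 samples was 84.8%, and 97.5% of the genes nearest in level varied less. The log2 fold change of 0.02 had an interval of -1.95 to 1.99 and was -1.42 without knockout sample 1 (edgeR, unadjusted p = 0.100). Its sign also turned with RLE scaling, to -0.057. The 24 immediate-early genes, which tissue dissociation can induce, summed to 20575, 16688 and 9156 CPM in knockout and to 10374, 8707 and 9652 CPM in wild type. Skil was at 377 CPM in knockout sample 1, which had the highest sum, and at 64.2 CPM in knockout sample 2, which had the next highest. In wild-type sample 1, with a sum of 10374 CPM, Skil was at 309 CPM. The part of the immediate-early genes in the level of Skil was not tested.

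**Figure D3:**
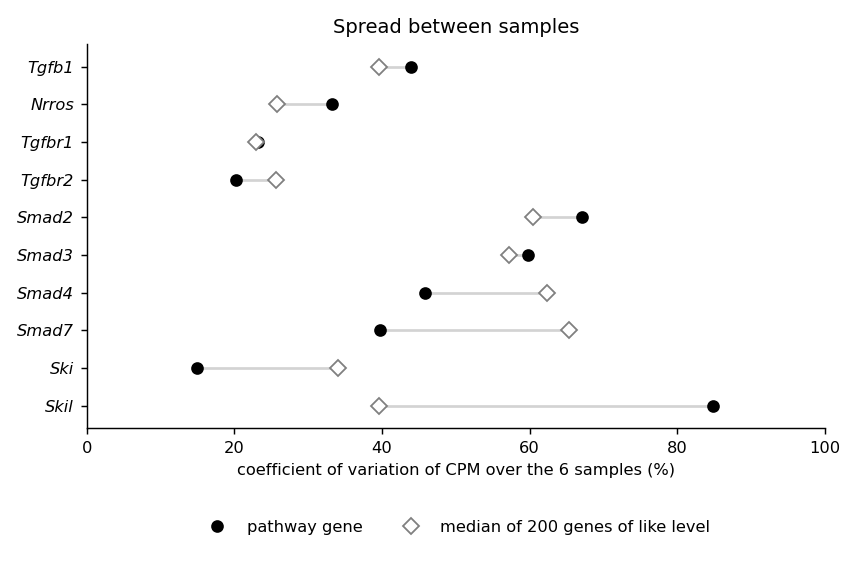
Coefficient of variation of CPM over all 6 samples, in percent, for each gene (filled points) and the median of the 200 tested genes nearest to it in mean CPM (open diamonds). Ski (14.9%) lies far to the left of its neighbours (34.1%) and Skil (84.8%) far to the right of its own (39.6%).

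The spread within a genotype was smaller in knockout for 6 of the 10 genes and smaller in wild type for Tgfbr1, Smad3, Ski and Skil. Over all tested genes the median coefficient of variation was 56.6% in knockout and 87.4% in wild type. Wild-type sample 1, the shallowest, had the highest value of the 6 samples for 4 genes and the lowest for 2. Knockout sample 1 was highest for 3 genes and lowest for 2.

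**Figure D4:**
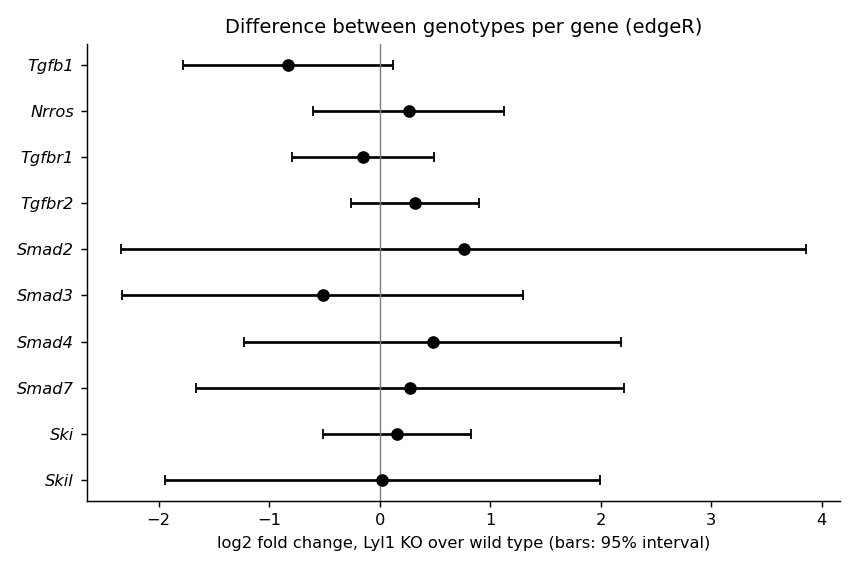
Log2 fold change of each gene, Lyl1 KO over wild type, from the edgeR fit over all genes, with bars for the 95% interval. Every interval includes 0, and the intervals of Tgfbr1, Tgfbr2, Ski and Nrros are the narrowest.

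For a comparison of levels between genes, CPM was divided by the length of the annotated exons of each gene. Tgfbr1 was at 112 ± 30.5 CPM per kilobase in knockout and 125 ± 29.0 CPM per kilobase in wild type, and Nrros at 129 ± 11.7 CPM per kilobase in knockout and 108 ± 58.1 CPM per kilobase in wild type (SD, n = 3 each). These were the most abundant and did not differ from each other beyond their spread. Tgfbr2 followed at 67.2 ± 10.7 CPM per kilobase in knockout and 53.8 ± 11.3 CPM per kilobase in wild type, then Ski at 46.9 ± 7.92 CPM per kilobase in knockout and 42.1 ± 5.58 CPM per kilobase in wild type, and Tgfbr2 was above Ski in all 6 samples. Tgfb1 was at 23.8 ± 5.71 CPM per kilobase in knockout and 42.4 ± 15.4 CPM per kilobase in wild type. Skil, Smad4, Smad3, Smad7 and Smad2 had means over the 6 samples of 17.0, 16.9, 14.6, 10.5 and 8.04 CPM per kilobase, each within the spread of its neighbours in this order. The place of Tgfb1 depended on the transcripts counted. With the basic transcript set its exon length fell to 2175 bases, against 5042 bases with all transcripts, and Tgfb1 moved above Ski and Tgfbr2 to 76.7 CPM per kilobase over the 6 samples.

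Genes whose profile over the 6 samples lay nearest to that of the ligand and receptors were sought among 6523 genes with a mean of 20 CPM or more. Nearest to Tgfb1 was Psmb1, a proteasome subunit, with a root mean square difference of 0.0883 log2 units, followed by Ppib and Cd34. Nearest to Tgfbr1 was Tmem55b at 0.0882 log2 units, followed by Rps3 and Gpx4. Nearest to Tgfbr2 was Asah1, the acid ceramidase, at 0.0718 log2 units, followed by Srgap2 and Mgat4a. With 6 samples and this many candidates, near profiles are found for many genes, and no test was made of them.

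The wider pathway was read from a list of 102 further genes of the TGF-beta superfamily, of which 101 were found and 63 tested. None passed the adjusted threshold in either direction. An unadjusted p under 0.05 was reached by 2 higher and 0 lower genes of the 63, beside 1.16% and 1.67% of all tested genes. This list was made with earlier results of these data known. The list had 39 genes with a higher and 24 with a lower fitted level in knockout, and its median log2 fold change was 0.14, beside -0.03 over all genes. The 2 genes were Itgb1 and E2f4. Both lie on chromosome 8, as does the targeted gene Lyl1, with Itgb1 from 128685654, E2f4 from 105297663 and Lyl1 from 84701457. The part of the targeted chromosome in their levels was not tested. Itgb1, an integrin subunit that can pair with the alpha V chain in activating latent TGF-beta, was at 367, 376 and 308 CPM in knockout, against 16.0, 53.7 and 204 CPM in wild type. Every knockout sample was above every wild-type sample, and the wild-type samples themselves spread widely (edgeR, log2 fold change 1.94, unadjusted p = 0.0442). E2f4, a partner of Smad3 in repressing cell cycle genes, was at 161, 96.2 and 74.3 CPM in knockout, against 44.4, 12.0 and 42.2 CPM in wild type (edgeR, log2 fold change 1.75, unadjusted p = 0.0446). The count of 2 became 0 without knockout sample 1, 1 without knockout sample 2, knockout sample 3 or wild-type sample 2, 5 without wild-type sample 1 and 7 without wild-type sample 3. It was 1 with upper-quartile or library-size scaling, the replicate block, or Xist or the number of genes detected as a covariate, and 5 with limma-voom or with DESeq2 on the genes edgeR tested.

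Among other genes of the pathway that the naming rule took, Fkbp1a, Pmepa1, Rhoa and Skp1a were lower in every knockout sample. The genotypes overlapped for Itgb5, Cul1 and Ppp2ca. Of the 63 tested genes of the list, 6 were higher and 4 lower in every knockout sample. The shares over all tested genes were 5.97% and 5.19%. Itgb5, the most abundant integrin chain of the list, was at 2120 to 2807 CPM in knockout and 2446 to 2939 CPM in wild type. Fkbp1a, which binds the type I receptor and keeps it inactive without ligand, was at 114, 166 and 107 CPM in knockout, against 182, 333 and 185 CPM in wild type, lower in every knockout sample (edgeR, unadjusted p = 0.0645). Pmepa1, a TGF-beta-induced gene whose product dampens the signal, was at 441, 326 and 453 CPM in knockout, against 575, 633 and 459 CPM in wild type, again without overlap but with knockout sample 3 and wild-type sample 3 almost level (edgeR, unadjusted p = 0.104). Rhoa, a small GTPase of the SMAD-independent arm, was at 135, 165 and 182 CPM in knockout, against 368, 245 and 214 CPM in wild type. Skp1a and Cul1, components of ubiquitin ligases, were at 85.6 to 117 and 156 to 188 CPM in knockout, and at 144 to 186 and 49.9 to 301 CPM in wild type. The phosphatase subunit Ppp2ca was at 219 to 429 CPM in knockout and 160 to 389 CPM in wild type.

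Of 36 general TGF-beta target genes known from many cell types, 20 were tested, 9 with a higher and 11 with a lower fitted level in knockout, and their median log2 fold change was -0.05. Unadjusted p-values under 0.05 were found for 2 higher and 0 lower genes of the 20, beside 1.16% and 1.67% of all tested genes. This list too was made with earlier results of these data known. Junb, an AP-1 transcription factor that is also an immediate-early gene, was at 1651, 1552 and 1280 CPM in knockout, against 888, 953 and 1206 CPM in wild type. Junb lies on chromosome 8 from 84974484 to 84978718, close to Lyl1 at 84701457 to 84704715. The part of the targeted locus in the level of Junb was not tested. Tsc22d1 was at 11.0, 0.661 and 4.07 CPM in knockout and at 0.238 CPM or less in wild type, a level at which single samples decide the value. Cdkn1a, the cell cycle inhibitor p21, was at 14.7, 17.9 and 16.3 CPM in knockout, against 0.264, 0.0795 and 2.34 CPM in wild type (edgeR, unadjusted p = 0.0681). The tetraspanin Cd9 was at 1447, 1077 and 1264 CPM in knockout, against 1878, 1659 and 1377 CPM in wild type.

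A further list held 34 microglial genes that have been linked to TGF-beta signalling in mouse, and all 34 were tested. The fitted level was higher in knockout for 13 and lower for 21, with a median log2 fold change of -0.16, and none passed the adjusted threshold. Members at an unadjusted p under 0.05 numbered 0 higher and 7 lower of the 34, beside 1.16% and 1.67% of all tested genes. Some of these 7 were known from earlier results of these data when the list was made, so their count is not independent evidence of a direction. Serpine2, a protease inhibitor, was at 780, 1039 and 976 CPM in knockout, against 2062, 1164 and 1331 CPM in wild type. Gas6, a ligand of the phagocytic receptor Mertk, was chosen after its values were seen and was at 109, 222 and 184 CPM in knockout, against 451, 460 and 216 CPM in wild type. Cst3, the inhibitor cystatin C and the most abundant member, was at 47448, 41578 and 50137 CPM in knockout, against 68214, 63443 and 47218 CPM in wild type. Ltc4s, the leukotriene C4 synthase, was at 83.5 to 128 CPM in knockout and 247 to 347 CPM in wild type (edgeR, log2 fold change -1.50, unadjusted p = 0.00226). Lower members also included Fcrls and C1qa. On the other side Pros1, a second Mertk ligand that was also chosen after its values were seen, was at 595, 707 and 568 CPM in knockout, against 527, 409 and 359 CPM in wild type (edgeR, unadjusted p = 0.0543). The microglial markers P2ry12, Sall1 and Cx3cr1 were also among the higher members, with log2 fold changes of 0.22, 0.50 and 0.12 (edgeR, unadjusted p = 0.108, 0.113 and 0.406). Csf1r was nearly level at -0.04. The count of 7 lower members became 4 without knockout sample 1, wild-type sample 1 or wild-type sample 2, 4 with upper-quartile scaling or with Xist or the number of genes detected as a covariate, and 1 with DESeq2 on all genes with a read.

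**Figure D5:**
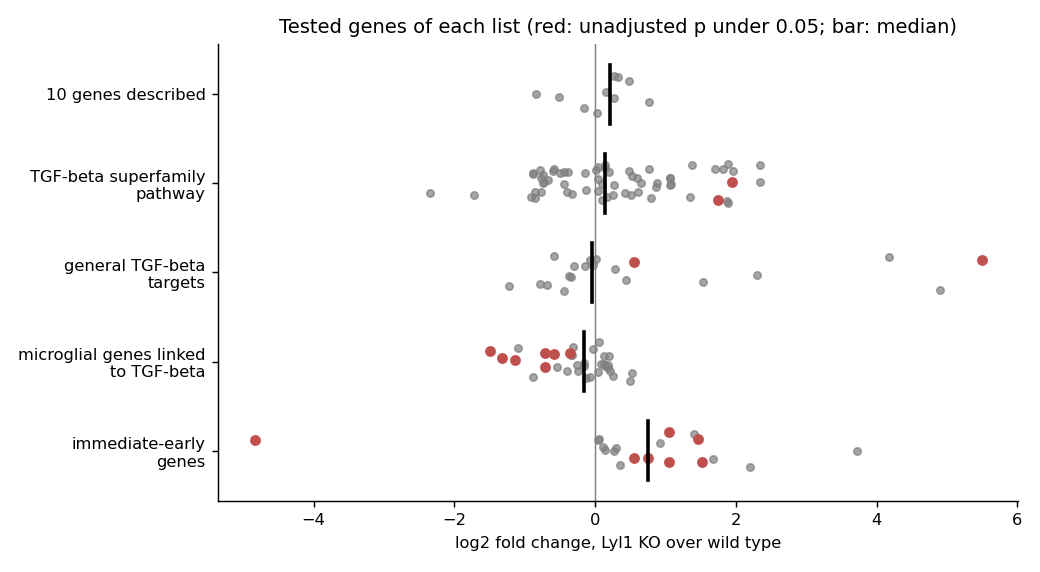
Log2 fold change, Lyl1 KO over wild type, of each tested gene in 5 lists (rows), with a bar at the median of the list and red points where the unadjusted edgeR p was under 0.05. None of the 10 genes described here is red, and the red points of the microglial genes linked to TGF-beta all lie left of 0. Some of those red genes were known from earlier results of these data when the list was made. Their side is thus not independent evidence of a direction.

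Markers of other cell types were low beside those of microglia but not equal between samples. In sorted bulk samples, fewer cells of a type and less RNA per cell cannot be told apart. The 8 endothelial and pericyte markers summed to 27.2 to 61.9 CPM in knockout and 28.5 to 180 CPM in wild type, the highest in wild-type sample 1, where Tgfb1, Tgfbr1, Smad3 and Smad7 were also at their highest and Nrros and Smad2 at their lowest. Most of that sum was Pecam1, at 27.2, 61.5 and 33.9 CPM in knockout, against 154, 26.1 and 37.7 CPM in wild type, and Kdr reached 25.7 CPM in wild-type sample 1. Of the other 6 markers, Cldn5 and Rgs5 had no read in any sample. The 8 markers of border-associated macrophages summed to 177 to 408 CPM in knockout and 420 to 470 CPM in wild type, most of it Stab1. Stab1 alone was at 173 to 407 CPM in knockout and 374 to 430 CPM in wild type, with overlap. Only Stab1 and Mrc1 of these markers had enough reads to be tested. Mrc1 was at 3.48, 0.152 and 10.2 CPM in knockout, against 95.4, 0.318 and 20.1 CPM in wild type, also highest in wild-type sample 1. The 6 erythroid markers summed to 227, 65.3 and 0.243 CPM in knockout, and to 0.286 to 1.23 CPM in wild type, with the highest sum in knockout sample 1, where Tgfb1 and Smad3 were lowest and Tgfbr2, Ski and Skil highest. Neuronal markers summed to 7.62 CPM or less in every sample, astrocyte markers to 170 to 258 CPM in knockout and 176 to 412 CPM in wild type, nearly all of it Slc1a3, and those of oligodendrocytes and their precursors to 109 to 215 CPM in knockout and 47.4 to 379 CPM in wild type. Markers of T, NK and B cells summed to 73.5 to 132 CPM in knockout and 55.9 to 131 CPM in wild type, nearly all of it Cd79b, and those of monocytes and neutrophils to 7.04 CPM or less. The part of these cells in the levels of the 10 genes was not tested.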

How the data were processed

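RNA of sorted microglia was measured by sequencing in 3 Lyl1 KO and 3 wild-type samples. The deposited table holds unnormalized read counts, 1 row per gene symbol. Tools listed in the submitters' processing notes, without a role or order, are featureCounts 1.5.1, STAR 2.5.2b, CASAVA 1.8.2, limma 3.28.21 and Subread, and the build listed is GRCm38. Which annotation and strand setting were used is not given in the sources used here. Per the labels' protocols, cDNA made from up to 1.0 ng of RNA was amplified over 14 or 15 cycles, and libraries from 150 pg of cDNA were read over 50 cycles. Copies made by PCR are counted as reads, so limits from counts cover counting error only.

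Of 48679 entries, 92 were ERCC spike-ins and entered neither library totals nor tests. In R 4.3.3, edgeR 4.0.16 filterByExpr (minimum count 10, minimum total 15) kept 10394 genes, scaled by TMM. Knockout was compared with wild type by the 2-sided quasi-likelihood F test, with genotype alone in the fit, Benjamini-Hochberg adjustment over all genes and a threshold of 0.05. Standard errors and 95% intervals come from that fit, on the log2 scale. Exact permutation tests used log2(CPM + 1) and all 20 splits. DESeq2 1.42.0 and limma-voom 3.58.1 were alternatives. The edgeR step was tested on simulated data.

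The 10 genes, the lists and the naming rule were chosen with earlier results of these data known. The rule named all 10, Lyl1, for each pathway role the gene with the smallest p and the one with the highest CPM, for other lists the 4 with the smallest p and the 2 highest, and the 3 nearest profiles of Tgfb1, Tgfbr1 and Tgfbr2. Only part of them is described. Positions and exon lengths are those of GENCODE M21 on GRCm38. No exon of the 10 genes shares bases with another annotated gene. Promoters are RefSeq windows on GRCm38.p6.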

Additional observations from a re-analysis of the deposited data

How the results depend on the processing

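The 10 genes were refitted under 17 alternatives, and none of the 10 was called in any of them (lowest adjusted p 0.458, for Tgfb1). Tgfb1 was lower and Nrros, Tgfbr2, Smad2, Smad4 and Ski higher in knockout in all 17. Tgfb1 ran from -1.06 to -0.53 on the log2 scale. Upper-quartile scaling moved the median of all tested genes by 0.12 and turned Tgfbr1 to 0.012. Xist as a covariate moved that median by -0.24 and took Tgfbr1 to -0.60, its lowest value of the 17. Fits with this covariate rest mainly on knockout sample 2, the only knockout sample with as little Xist as wild type. Skil, 0.02 as reported, turned to -0.057 with RLE scaling, -0.057 with DESeq2 on the genes edgeR tested, -0.089 with limma-voom, -1.27 with Xist as a covariate and -0.29 with the replicate block. Leaving out a sample at a time gave -1.42 to 0.88 for Skil, -0.36 to 0.053 for Tgfbr1, -0.85 to 0.13 for Smad3 and -0.094 to 0.86 for Smad7.

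Without a sample, 0 to 1 of the 10 had an unadjusted p under 0.05: Nrros without wild-type sample 2 and Tgfb1 without wild-type sample 3. Of all genes, edgeR called 3 higher and 5 lower with no filter. DESeq2 called 34 higher and 18 lower on the genes edgeR tested and 97 higher and 40 lower on all genes with a read. The 295 genes at an unadjusted p under 0.05 became 1663 with no filter, 626 and 975 with these DESeq2 fits, 663 with limma-voom, 171 with the replicate block and 272 to 1158 without a sample. The list counts were added to the alternatives after the data were seen. The 2 pathway genes became 1 with upper-quartile or library-size scaling, the replicate block, Xist or the number of genes detected as a covariate, 5 with DESeq2 on the genes edgeR tested or limma-voom, and 0 to 7 without a sample. The 7 lower microglial genes became 4 with upper-quartile scaling, Xist or genes detected as a covariate, 1 with DESeq2 on all genes with a read, and 4 to 10 without a sample. The block changed no call of the 10 genes. Deviations from the genotype mean correlated with r of 0.0014, -0.013 and -0.040 over 6523 genes for samples 1, 2 and 3, and not every sample correlated best with its own number, so the numbers were not taken to pair samples. The causes of these shifts were not tested. At 3 samples a genotype, the 95% intervals of Smad2, Smad3, Smad4, Smad7 and Skil include log2 differences of both -1 and 1.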
